A study of Mus musculus with 11 samples.

Results

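Amotl2 encodes one of the angiomotins, scaffold proteins of cell junctions, and it was examined in dermatitis skin together with 8 further genes of the Hippo pathway: Amotl1, Amot, Yap1, Wwtr1, Tead1, Lats1, Lats2 and Nf2. The genes were taken by symbol from the 24411 genes of the deposited tables, where all 9 were found, and all 9 were among the 14588 genes that passed the filter on low counts. Amotl2 was chosen because it was among the genes that differed most between the marrow groups in these same samples, so its difference is given as a description without a test. The other 8 were chosen as its known partners in the pathway, with earlier results of these data known.

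RNA of mouse back skin was sequenced in 11 samples. In 4 samples the irradiated host had received tdTomato-positive femoral marrow cells, and in 7 samples tdTomato-negative femoral marrow cells, both sorted from Pdgfra-Cre;tdTomato donors, whose tdTomato reports that the Pdgfra promoter has driven Cre in a cell or its ancestors. All hosts were of the strain Tg(act-EGFP)Y01Osb, which carries an EGFP transgene. All received 10 Gy before the transfer, recovered for 6 weeks and were then treated 6 times on the back with MC903, a vitamin D analog that causes a skin inflammation resembling atopic dermatitis. Skin was taken on day 14, and the age label reads 16 to 18 without a unit. No sample without MC903 or without a transplant was analysed here. The RNA came from whole skin, in which keratinocytes, fibroblasts and endothelium of the host remain, so fewer cells of a type and less RNA per cell cannot be told apart. Nothing in the labels says that the numbered samples are separate animals, and the p-values therefore reflect only how these samples vary, which may be technical. The 11 samples held 7190752 to 9749842 estimated read counts each.

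The Hippo pathway limits tissue growth through a kinase chain. NF2 (merlin) at the membrane promotes activation of the kinases LATS1 and LATS2, which phosphorylate the coactivators YAP (Yap1) and TAZ (Wwtr1) and keep them out of the nucleus. When the kinases are inactive, YAP and TAZ enter the nucleus and act through TEAD proteins, of which TEAD1 is one. Angiomotins bind YAP and TAZ, hold them at junctions and in the cytoplasm, and can activate LATS kinases. AMOTL2 itself is a well known transcriptional target of YAP and TAZ, as is LATS2, so both work in feedback loops. In skin, YAP is active in basal epidermal and hair follicle progenitors.

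TEAD proteins recognise the M-CAT element, whose core is GGAATG, or CATTCC on the opposite strand. The stretches below are shown because they hold that core upstream of an annotated transcript start of Amotl2, of both coactivator genes, and of Cyr61, a classical YAP target known as Ccn1 in RefSeq. All are from RefSeq on GRCm38.p6, written in the direction of the gene, with the core in capitals.
Amotl2 (chr9:102717711-102717772, plus strand): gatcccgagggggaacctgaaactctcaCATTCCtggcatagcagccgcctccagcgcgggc
Yap1 (chr9:8004704-8004765, minus strand): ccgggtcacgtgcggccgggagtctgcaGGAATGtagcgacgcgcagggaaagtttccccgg
Wwtr1 (chr3:57576013-57576074, minus strand): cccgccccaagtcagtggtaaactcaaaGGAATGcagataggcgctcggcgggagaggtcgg
Cyr61 (chr3:145650055-145650116, minus strand): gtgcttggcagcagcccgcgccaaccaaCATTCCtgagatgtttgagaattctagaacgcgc
Starts are those of the transcripts in the promoter table, and those of Amotl2 and Yap1 lie inside the span annotated for the gene. The core began 65 bases upstream of the start in Amotl2, 141 in Yap1, 136 in Wwtr1 and 103 in Cyr61. In the promoter windows used, 250 bases before to 50 bases after a start, 4 of the 8 members with a window held GGAATG on either strand (Amotl2, Yap1, Wwtr1 and Lats2). Of all 27025 genes with windows, 16.6% held it. The longer form AGGAATG, in which the core is contained, was in the windows of 3 members (Amotl2, Yap1 and Wwtr1) and of 6.15% of all genes. A match describes the letters only and shows no binding.

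Amotl2 stood at 63.8, 61.3, 71.8 and 71.2 CPM (read counts divided by TMM-scaled library size) in tdTomato-positive replicates 1 to 4. In the tdTomato-negative group its lowest, median and highest values were 75.9, 88.0 and 102 CPM. The highest positive sample thus lay below the lowest negative sample, with a narrow gap to negative replicate 7. The means were 67.0 ± 5.26 CPM (SD, n = 4) after positive and 90.3 ± 8.71 CPM (SD, n = 7) after negative marrow. The fitted log2 fold change, positive minus negative, was -0.43 ± 0.09 (SE), a ratio of 0.742. Estimated read counts behind these values ran from 480 to 699 in the positive and from 571 to 765 in the negative samples. Of the 14588 tested genes, 1.06% lay lower in the positive group without overlap and 0.61% higher, and 7.57% had a fitted log2 fold change as far below 0. Since Amotl2 was picked for this separation, nothing is read from it. With edgeR's quasi-likelihood test, 0 genes passed a Benjamini-Hochberg adjusted p of 0.05, while 2448 (16.8%) had an unadjusted p under 0.05. DESeq2 called 83 genes (0.658% of those with an adjusted p), limma-voom with sample quality weights 2093 (14.3%) and limma-voom without weights 0.

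On GRCm38.p6, Amotl2 lies on chromosome 9 from 102717091 to 102733418, and no other RefSeq gene overlaps its span. Amotl1 and Yap1 are on the same chromosome, at 14541966 to 14662974 and 7931999 to 8004638. Amot is on chromosome X (145446424 to 145505966). Wwtr1 is on chromosome 3 (57455644 to 57575910), Tead1 on chromosome 7 (112679356 to 112906784), Lats1 on chromosome 10 (7681200 to 7716461), Nf2 on chromosome 11 (4757639 to 4849544) and Lats2 on chromosome 14 (57689662 to 57746212). RefSeq places other genes across parts of Amotl1, Wwtr1, Lats1 and Lats2. The strand setting of the counting is not given in the sources used here, so reads of such neighbours could be counted with them.

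**Figure D1:**
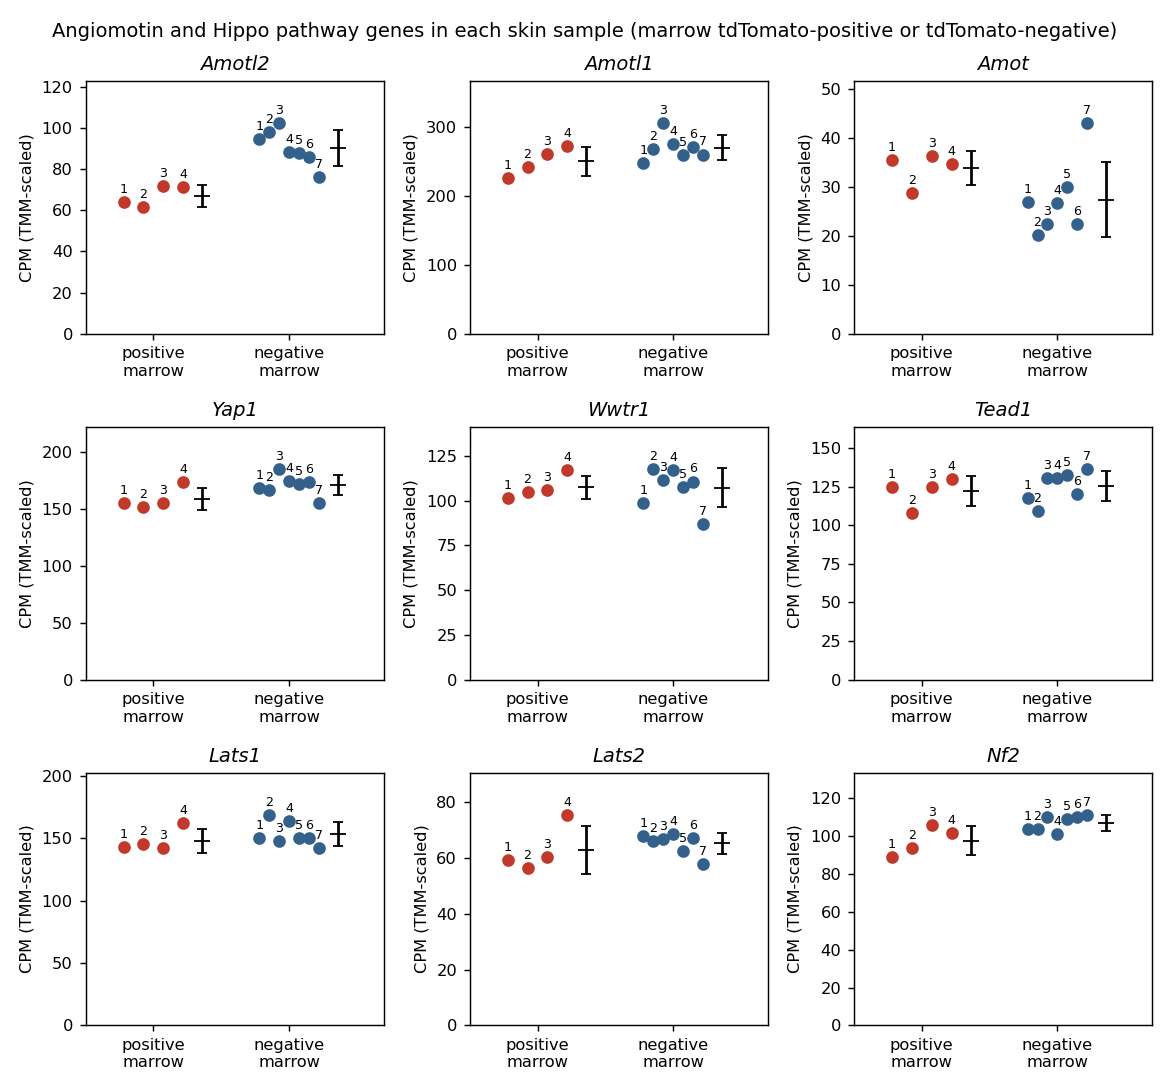
Each panel plots 1 gene in CPM (TMM-scaled, axis from 0) for the 4 tdTomato-positive samples at left and the 7 tdTomato-negative samples at right, with replicate numbers and the mean ± SD beside each group. The groups are apart in Amotl2 (61.3 to 71.8 against 75.9 to 102 CPM) and overlap in the other 8 genes.

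The question was whether the difference in Amotl2 extended to its partners. It was not detected in any of the 8. None had an edgeR adjusted p under 0.05, but neither did any of the 14588 tested genes, Amotl2 included, so that count does not set the partners apart. None had an unadjusted p under 0.05 (16.8% of all tested genes did), and in none were the groups apart (1.67% of all tested genes, either direction). Of the 8, 6 had a fitted log2 fold change below 0 and 2 above 0, with a median of -0.05, where 51.4% of all tested genes lay below 0 and 48.6% above, with a median of -0.01. All 8 intervals at 95% held 0. The difference between Amotl2 and its partners was not tested, because Amotl2 was chosen on this contrast.

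The other angiomotins had intervals on both sides of 0. Amotl1, which links junctions to YAP as Amotl2 does, had 225, 242, 261 and 273 CPM in positive replicates 1 to 4, against a lowest, median and highest of 248, 269 and 306 CPM in the negative group. Positive replicates 1 and 2 lay below all negative samples, and positive replicates 3 and 4 lay among them. edgeR fitted a log2 difference of -0.11 ± 0.08 (SE; interval -0.28 to 0.06) at an adjusted p of 0.476. With a score of endothelial markers in the fit, the value was -0.0048, and with a score of hair markers -0.054.

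Amot, the founding member of the family, had 35.5, 28.7, 36.2 and 34.7 CPM after positive marrow (replicates 1 to 4), against 20.2, 26.7 and 42.9 CPM as the lowest, median and highest after negative marrow. All 4 positive samples lay above the negative median, but negative replicate 7 was the highest of all samples. The fitted log2 difference of 0.31 ± 0.18 (SE) had the widest interval of the 9 genes, -0.08 to 0.70, and an edgeR adjusted p of 0.388. Without negative replicate 7 it was 0.46, with an edgeR adjusted p still above 0.05.

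As a part of the TPM of the 3 angiomotins, Amotl2 made up 34.1%, 32.4%, 33.7% and 33.0% in positive replicates 1 to 4, against 34.6% to 42.2% in the negative samples. Amotl1 was the largest part in each of the 11 samples, with 54.7% to 58.2% in the positive and 50.5% to 55.3% in the negative group. Amot made up 9.34% to 11.2% in the positive and 5.18% to 11.5% in the negative group. The summed TPM of the 3 genes was 79.5 ± 9.05 (SD, n = 4) and 88.8 ± 3.71 (SD, n = 7), with overlapping groups. These shares carry the Amotl2 difference and are descriptions of it.

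Yap1, the coactivator that angiomotins bind, had 155, 151, 155 and 173 CPM after positive marrow (replicates 1 to 4), against 155, 172 and 185 CPM as the lowest, median and highest after negative marrow. Positive replicates 1 to 3 lay at or just below the lowest negative sample, which was replicate 7, and positive replicate 4 lay among the negative samples. For this gene edgeR fitted -0.11 ± 0.07 (log2, SE; interval -0.25 to 0.04) at an adjusted p of 0.425. With the endothelium score in the fit the Yap1 value was -0.0084, and with the hair score -0.036. Within each sample, the TPM of Amotl2 divided by that of Yap1 was 0.409, 0.403, 0.460 and 0.408 in the positive replicates and 0.485 to 0.581 in the negative ones. This ratio carries the Amotl2 difference and is a description of it.

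Wwtr1, which encodes TAZ, had 102, 105, 106 and 117 CPM in positive replicates 1 to 4, against 87.0 CPM as the lowest, 111 CPM as the median and 117.7 CPM as the highest value in the negative group. All 4 positive samples lay inside the negative range. The means, 107 ± 6.57 CPM (SD, n = 4) and 107 ± 10.9 CPM (SD, n = 7), were the closest of the 9 genes. The fitted log2 difference was 0.0030 ± 0.09 (SE), its interval -0.19 to 0.19 and its edgeR adjusted p 0.992. It was 0.13 with the hair and 0.18 with the endothelium score in the fit.

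Tead1, the DNA-binding partner of both coactivators, had 125, 108, 125 and 130 CPM after positive marrow (replicates 1 to 4), against 109, 130 and 136 CPM as the lowest, median and highest after negative marrow. Positive replicate 2 lay just below the lowest negative sample, and the other positive samples lay inside the negative range. The difference came to -0.04 ± 0.08 (log2, SE; interval -0.21 to 0.14), and edgeR gave an adjusted p of 0.830.

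The LATS kinases phosphorylate YAP and TAZ. Lats1 had 143, 145, 142 and 162 CPM in positive replicates 1 to 4, against 142, 151 and 169 CPM as the lowest, median and highest in the negative group. The groups overlapped, and edgeR fitted a log2 difference of -0.05 ± 0.07 (SE; interval -0.20 to 0.10) at an adjusted p of 0.733. Lats2, itself a YAP target, had 59.2, 56.3, 60.3 and 75.5 CPM, against 57.8, 66.8 and 68.7 CPM. The highest Lats2 level of all 11 samples was in positive replicate 4, whereas positive replicates 1 to 3 lay near the low end of the negative group. The fit for Lats2 gave -0.06 ± 0.09 (log2, SE; interval -0.24 to 0.13), with 0.760 as the edgeR adjusted p. Without positive replicate 4 it was -0.16, and without positive replicate 2 it was -0.00093, with adjusted p still above 0.05 in both. The sign of both kinases turned when the hair or the endothelium marker score was added to the fit, with values of 0.05 or less.

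Nf2, the tumor suppressor upstream of the kinases, came closest to Amotl2 in direction and size among the partners. Nf2 had 89.1, 93.6, 106 and 102 CPM after positive marrow (replicates 1 to 4), against 101, 109 and 111 CPM as the lowest, median and highest in the negative group. Positive replicates 1 and 2 lay below all negative samples, and replicates 3 and 4 lay among them. edgeR fitted -0.13 ± 0.07 (log2, SE; interval -0.28 to 0.01) at an adjusted p of 0.324.

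**Figure D2:**
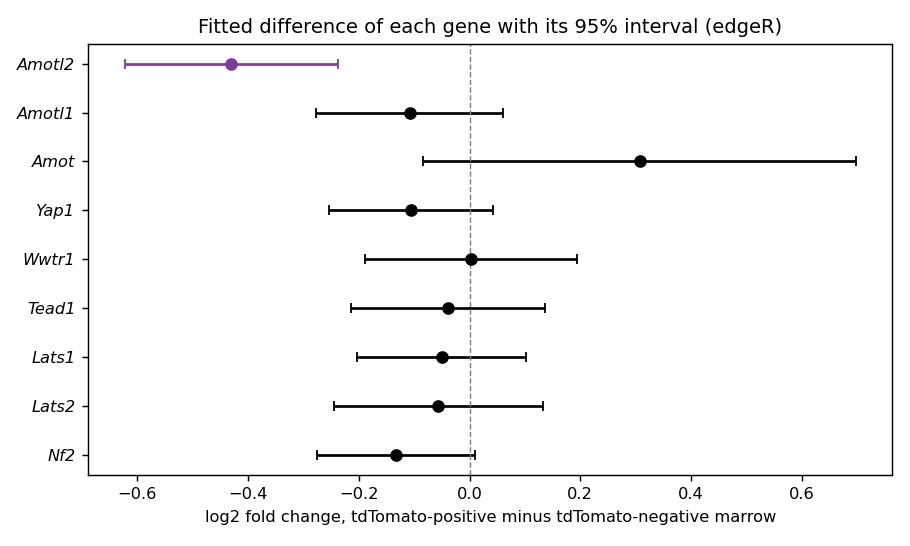
Points are fitted log2 fold changes (tdTomato-positive minus tdTomato-negative marrow, x axis) of the 9 genes with 95% intervals from edgeR, and the dashed line marks 0. Amotl2, drawn in purple and chosen on this contrast, lies at -0.43, and the 8 partners lie between -0.13 (Nf2) and 0.31 (Amot), each with an interval across 0.

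Among the 9 genes, some samples were often at the end of their group's range, and this was not set beside all tested genes. Positive replicate 4 had the highest CPM of its group in 6 of the 9 genes (Amotl1, Yap1, Wwtr1, Tead1, Lats1 and Lats2), and positive replicate 2 the lowest in 5 (Amotl2, Amot, Yap1, Tead1 and Lats2). In the negative group, replicate 7 was the lowest in 5 (Amotl2, Yap1, Wwtr1, Lats1 and Lats2) and the highest in 3 (Amot, Tead1 and Nf2).

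Levels of different genes were set side by side in TPM, which is per length. Over the 11 samples the order was Yap1 (65.3 ± 4.01 TPM, SD), Amotl1 (46.5 ± 3.64), Nf2 (40.3 ± 3.33), Wwtr1 (36.6 ± 3.01), Lats1 (33.5 ± 2.51), Amotl2 (31.9 ± 5.09), Lats2 (22.8 ± 2.03), Tead1 (20.2 ± 2.01) and Amot (7.03 ± 1.88). Yap1 was above Amotl1, Amotl1 above Nf2, Amotl2 above Lats2 and Tead1 above Amot in all 11 samples. Nf2 was above Wwtr1 in 9, Wwtr1 above Lats1 in 10 and Lats2 above Tead1 in 9 of 11 samples, so these neighbours did not separate in every sample.

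The place of Amotl2 in this order differed between the marrow groups, which restates the difference for which it was chosen. Amotl2 was below Lats1 in all 4 positive samples, where it had 23.4 to 29.5 TPM, and above Lats1 in 5 of 7 negative samples, where it had 31.4 to 38.6 TPM. Yap1 exceeded Wwtr1 in every sample, by a TPM ratio of 1.65 to 1.75 in the positive and 1.63 to 2.05 in the negative group. Lats1 exceeded Lats2 by a ratio of 1.35 to 1.6 in the positive and 1.31 to 1.603 in the negative group. Among the 4 TEAD genes, Tead3 was above Tead1 in all 11 samples. The fitted log2 difference of Tead3 was -0.21 ± 0.09 (SE; interval -0.40 to -0.02), with overlapping groups and an edgeR adjusted p of 0.276. Tead3 made up 46.8% to 51.3% of their summed TPM in the positive and 48.8% to 56.0% in the negative group.

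**Figure D3:**
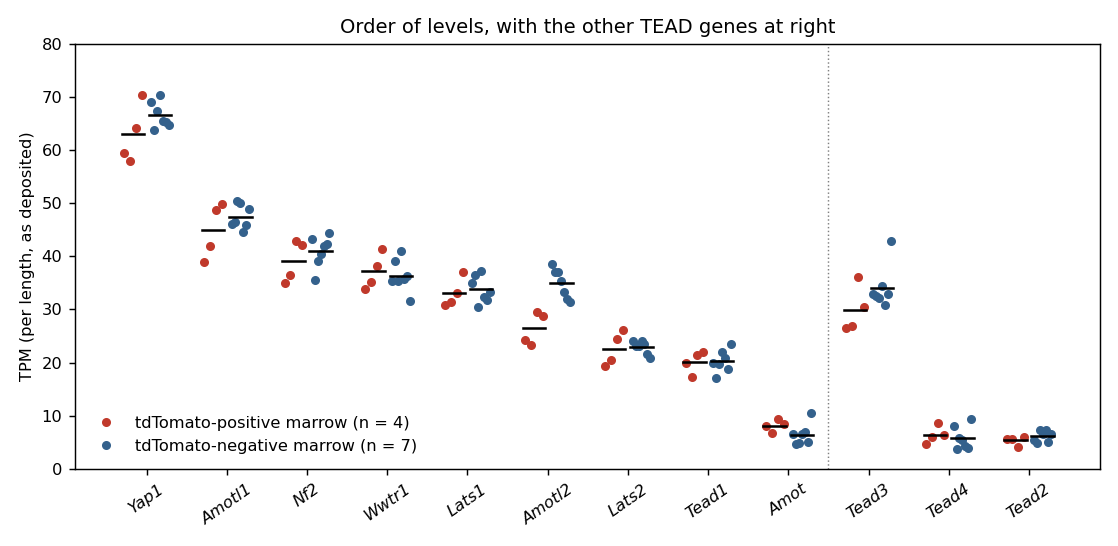
Deposited TPM of the 9 genes in order of their mean over the 11 samples, and of the other 3 TEAD genes right of the dotted line, with 1 point per sample and a bar for each group mean. Amotl2 has means of 26.5 TPM after positive and 34.9 TPM after negative marrow, on either side of the Lats1 means of 33.1 and 33.8 TPM.

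Markers of other cell types are given here beside the Amotl2 difference. None of them passed the adjusted threshold, and the summed levels of each list overlapped between the groups. All 20 hair shaft and inner root sheath markers were tested and all had a log2 fold change below 0. Their summed level ran from 578 to 15198 CPM in the positive and from 406 to 50222 CPM in the negative samples, and their median log2 fold change was -2.35. All 14 endothelial markers lay above 0, with a median of 0.38 and summed levels of 384 to 522 CPM in the positive and 288 to 501 CPM in the negative samples. All 8 macrophage (median 0.58), all 8 skeletal muscle (0.39), all 10 fibroblast (0.34) and all 7 adipocyte markers (0.27) lay above 0 as well. Of 8 basal keratinocyte markers, 7 lay above 0, with a median of 0.11 and 11301 to 18190 CPM in the positive and 8166 to 17571 CPM in the negative samples. Of 8 suprabasal keratinocyte markers, 7 lay above 0 (median 0.23), and of 7 pericyte and smooth muscle markers, 3 (median -0.21). Markers of keratinocytes, fibroblasts and endothelium were detected, as the label of skin requires, with none at 0 in all samples.

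The score of a list is the mean z-score of its log2 CPM values. Negative replicates 1 and 7 had hair scores of -0.46 and -1.59, below the 0.74 to 1.13 of the other negative samples, and Amotl2 levels of 94.6 and 75.9 CPM. Positive replicate 4 had a hair score of 0.47, above the -1.26 to -0.49 of the other positive samples, and an Amotl2 level of 71.2 CPM. Positive and negative replicates 1 had nearly equal hair scores, -0.49 and -0.46, with 63.8 and 94.6 CPM of Amotl2. Positive replicate 3 and negative replicate 7, both with low hair scores, had 71.8 and 75.9 CPM. With the hair score in the fit, the Amotl2 log2 fold change was -0.35, with the endothelium score -0.33 and with the basal keratinocyte score -0.34. Amot changed most of the 9 genes with the endothelium score, to a log2 fold change of 0.05.

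**Figure D4:**
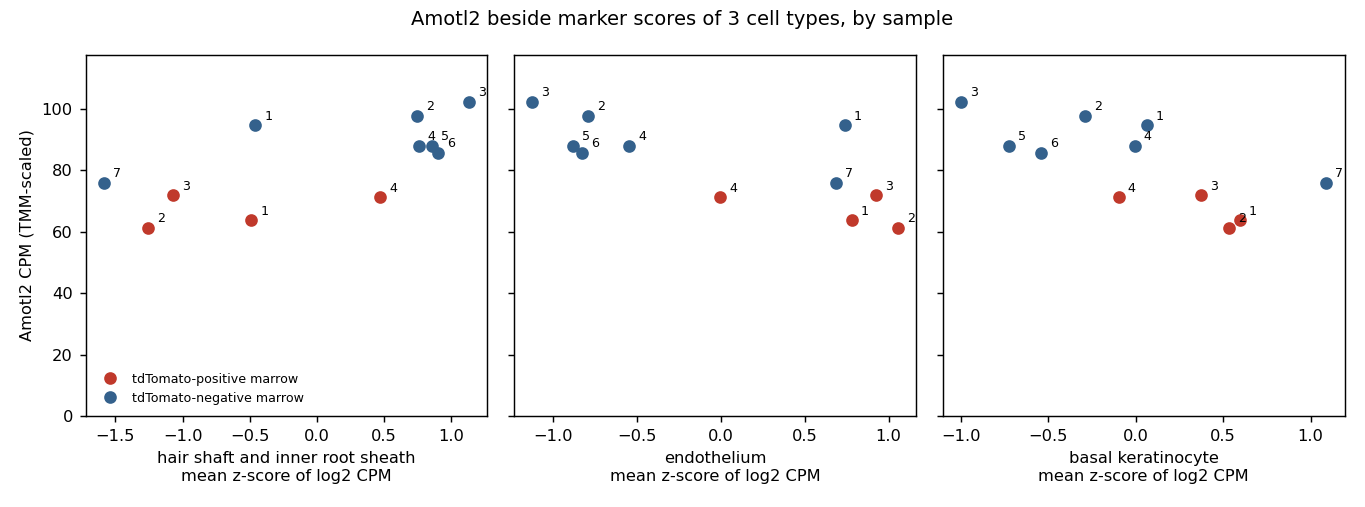
Amotl2 in CPM (y axis from 0) against the marker score of hair, endothelium and basal keratinocytes (x axes, mean z-score of log2 CPM), 1 point per sample with its replicate number. The 4 positive samples lie at 61.3 to 71.8 CPM across hair scores of -1.26 to 0.47, and all 7 negative samples lie above them.

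Further regulators of the pathway were taken from a list of 45 genes in the files, of which 44 were tested and Vgll1 was too low. Of the 44, 29 had a log2 fold change below 0 and 15 above, with a median of -0.09 against -0.01 over all tested genes. None passed the adjusted threshold in edgeR. At an unadjusted p under 0.05 there were 9 lower (9.73% of all tested genes) and 0 higher (7.05%). In either direction that was 20.5% of the 44, against 16.8% of all tested genes, and no set test was run. The 11 core kinases and scaffolds, among them the MST kinase genes Stk3 and Stk4, had a median of -0.02 and 0 at an unadjusted p under 0.05. Of the 14 membrane and junction regulators, 11 lay below 0, with a median of -0.21. The 5 of them at an unadjusted p under 0.05, among them Wwc1, Inadl, Crb3 and Tjp1, were all lower in the positive group. Of the 6 tested TEAD and VGLL genes in the list, 3 lay below 0 and 3 above. The 2 at an unadjusted p under 0.05, Tead3 and Vgll4, were lower in the positive group. For Vgll4 the fit gave -0.38 ± 0.12 (log2, SE). Its groups were narrowly apart, at 17.7 to 24.0 CPM in the positive and 24.1 to 35.8 CPM in the negative samples.

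The 3 regulators with the smallest p were Inadl, Wwc1 and Crb3. Inadl (also Patj), a scaffold of the apical Crumbs complex, had 41.5, 49.4, 51.7 and 53.5 CPM in positive replicates 1 to 4, against 49.3, 68.7 and 88.4 CPM as the lowest, median and highest in the negative group. The fitted difference was -0.47 ± 0.15 (log2, SE). The lowest negative value was again that of replicate 7, which lay among the positive samples.

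Wwc1 (KIBRA), which works with merlin to activate LATS kinases, had 23.1, 21.6, 24.6 and 33.2 CPM, against 27.4, 35.4 and 47.8 CPM. Its groups overlapped through positive replicate 4, and the fit gave -0.51 ± 0.16 (log2, SE). Crb3, a Crumbs polarity gene, had 8.47, 6.13, 9.86 and 8.64 CPM, against 10.2, 10.9 and 11.6 CPM, so its groups were apart at a low level. The fit for Crb3 gave -0.39 ± 0.12 (log2, SE). With the hair score in the fit, the median of the regulator list was -0.04. The part of hair content in these differences was not tested further.

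Transcripts that are known to rise with YAP and TAZ activity gave no common direction. Of 20 such genes in the files, 19 were tested and Foxf2 was too low, Ajuba and Ptpn14 being in both lists. Their median log2 difference was 0.10, with 12 of the 19 above 0 and 7 below. None passed the adjusted threshold. At an unadjusted p under 0.05 there were 5 lower (9.73% of all tested genes) and 4 higher (7.05%). Together these were 47.4% of the 19 targets, against 16.8% of all tested genes, and no set test was run. Without positive replicate 1 the median was -0.03.

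The 3 targets with the smallest p lay below 0. Fjx1, a Golgi kinase gene of the planar polarity pathway, had 3.99, 2.94, 4.21 and 2.97 CPM in positive replicates 1 to 4, against 2.70, 6.41 and 7.68 CPM as the lowest, median and highest in the negative group. Negative replicate 1 was the lowest of all 11 samples, and the other negative samples lay above all positive ones. The fit for Fjx1 gave -0.76 ± 0.25 (log2, SE). Ajuba, a LIM protein that inhibits LATS kinases, had 47.5, 64.3, 73.3 and 69.4 CPM, against 72.6, 77.7 and 91.6 CPM, a fitted difference of -0.33 ± 0.11 (log2, SE). Dock5, an activator of the GTPase Rac, had 39.9, 32.8, 37.7 and 45.8 CPM, against 36.3, 50.8 and 57.9 CPM, a fitted difference of -0.36 ± 0.13 (log2, SE).

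The classical targets Ctgf and Cyr61, which encode secreted matricellular proteins, were named after their values were seen. Ctgf had 49.0, 57.2, 75.4 and 56.1 CPM in positive replicates 1 to 4, against 39.7, 53.3 and 66.8 CPM, a fitted difference of 0.18 ± 0.15 (log2, SE). Cyr61 reached 76.6 CPM in 1 positive sample, replicate 1, while the other 3 stood at 35.2 to 38.6 CPM, against 29.0, 41.2 and 56.3 CPM after negative marrow. The fit for Cyr61 gave 0.13 ± 0.23 (log2, SE). The fitted direction of both was opposite to that of Amotl2, and neither was distinguishable from 0.

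**Figure D5:**
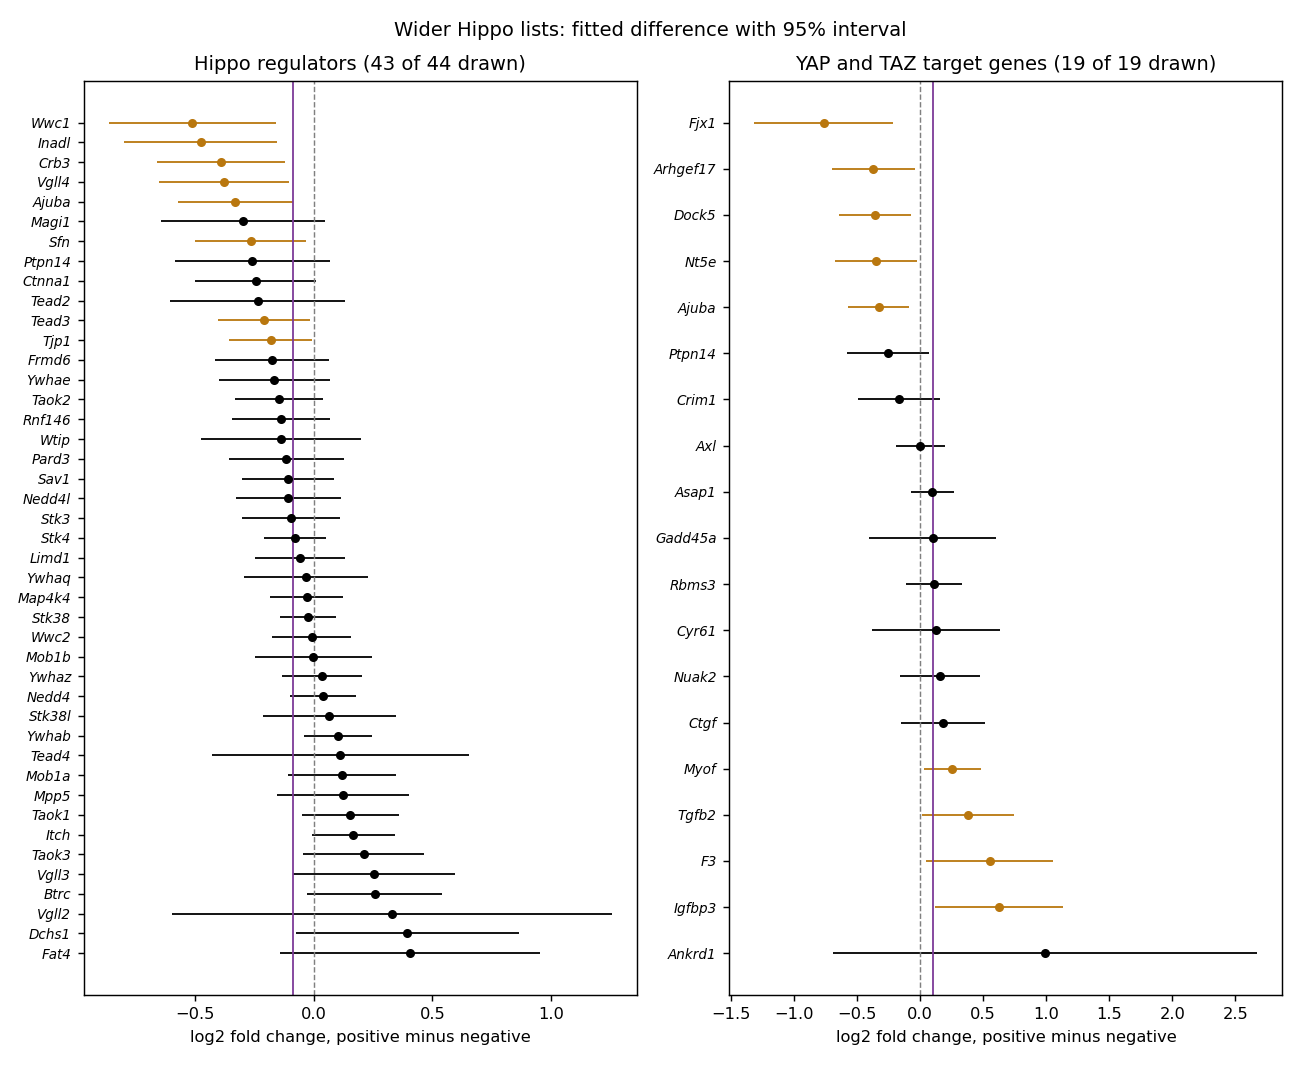
Fitted log2 fold changes (positive minus negative, x axis) with 95% intervals of the Hippo regulators (1 of the 44 is not drawn) at left and the 19 YAP and TAZ targets at right, colored where the unadjusted p is under 0.05. Purple lines mark the medians of the full lists, -0.09 and 0.10, and the colored regulators drawn all lie below 0 while colored targets lie on both sides.

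The genes most like Amotl2 over the 11 samples were found among 13822 other tested genes, without predicted and clone-named genes, by Pearson's r of log2 CPM. The 5 nearest were Map2k3 (r = 0.962), Map9 (0.957), Epc1 (0.931), Wnt9a (0.929) and Irgq (0.927). All 5 were lower in the positive group without overlap, so the group difference enters r, and library and tissue makeup are shared by the points. Map2k3, a kinase that activates p38, had 83.1, 78.6, 93.4 and 88.3 CPM in positive replicates 1 to 4, against 93.9, 103 and 115 CPM as the lowest, median and highest in the negative group.

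With each group's mean taken out, the 5 nearest were Slc25a47 (0.906), Fbxo21 (0.897), Map2k3 (0.878), Kcnq1 (0.867) and Rps3a1 (0.861). Map2k3 was in both sets. Slc25a47 (0.665 to 2.96 CPM) and Kcnq1 (1.92 to 6.06 CPM) were at low levels, as was Wnt9a of the first set (3.19 to 6.69 CPM). Both sets hold the highest r among 13822 genes over 11 samples, and r was not tested. Among the pathway partners, Yap1 was nearest to Amotl2 on both measures, with 0.776 over all samples and 0.676 within groups, and Amot ran opposite, with -0.69 and -0.57. By the first measure 435 genes were nearer to Amotl2 than Yap1 was.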

How the data were processed

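Total RNA of back skin was sequenced after removal of ribosomal RNA, per the labels' protocols. Named in the submitters' processing notes are RSEM, Trim Galore, bcl2fastq and the build GRCm38. No version, aligner or strand setting is given in the sources used here. Per the file headers, each deposited file holds RSEM expected counts (estimated read counts, not normalized), TPM values relative to the effective gene length, and effective lengths.

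Expected counts, rounded to whole numbers, summed to 7190752 to 9749842 per sample, and 7.93% to 8.52% of genes lay further than 0.005 from a whole number. edgeR 4.0.16 (R 4.3.3) was used with filterByExpr (minimum count 10, minimum total 15), TMM factors, glmQLFit in its legacy mode and glmQLFTest over 14588 genes, with 1 term for the marrow group. P-values were Benjamini-Hochberg adjusted over all tested genes. Each SE was obtained from the fitted difference and the root of its F statistic. The tests were also run on simulated counts with known changes. No library was a copy of another: chi-square per degree of freedom was at least 3.58 over 55 pairs.

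Alternatives were other scalings and filters, DESeq2 1.42.0, limma 3.58.1 (voom, quality-weighted voom, and limma-trend on log2(TPM + 1) and log2(TPM + 0.1)), length offsets, marker score covariates, a block for the replicate number, and fits without 1 sample at a time. The rule for named genes took the 9 members, 3 genes per list with the smallest p, and the 5 genes most like Amotl2 over all samples and the 5 with group means taken out. Tead3, Vgll4, Tjp1, Stk3, Stk4, Ctgf and Cyr61 fall outside it and were named after their values were seen. The members and lists were chosen with earlier results of these data known. Sequences and coordinates are from RefSeq, where 8 of 9 members had a promoter window. For 1 gene of the regulator list, values are not reported here, though it is in the counts.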

Additional observations from a re-analysis of the deposited data

Results flagged for a closer look

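Values far from the rest of their group were looked for in 40 sets, the 9 genes and 11 list scores in each marrow group, and 2 were found, where chance gives about 2. Lats1 in positive replicate 4 was at 162 CPM, with the other 3 positive samples at 142 to 145 CPM. Amot in negative replicate 7 was at 42.9 CPM, with the other 6 negative samples at 20.2 to 29.9 CPM. These samples also had the highest hair score of the positive group (0.47) and the lowest of the negative group (-1.59), and the part of hair content in these values was not tested.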

How the results depend on the processing

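Over 26 alternatives the Amotl2 log2 fold change stayed below 0, between -0.51 and -0.33 (-0.46 to -0.38 when 1 sample was left out). It was among the genes called by DESeq2 and quality-weighted voom, the 2 tools that made many calls, which adds no independent support for a gene chosen on this contrast. None of the 208 partner values passed an adjusted p of 0.05; the smallest was 0.0744. Partners near 0 changed sign in 13 values. Wwtr1 stood at -0.00094 with no low-count filter, -0.055 with quality-weighted voom, -0.049 with the replicate block and at -0.040 to 0.028 when 1 sample was left out. Tead1 stood at 0.0021 with the replicate block and at -0.071 to 0.023 when 1 sample was left out. With the hair and the endothelium score, Lats1 stood at 0.0020 and 0.020, and Lats2 at 0.030 and 0.045; with the basal keratinocyte score, chosen after the data were seen, Lats2 stood at 0.0093.

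Counts of genes past the threshold were 83 with DESeq2, 2093 with quality-weighted voom and 0 to 3 when 1 sample was left out (1 without negative replicate 4, 3 without negative replicate 7). The median of the regulators, -0.09, was -0.048 with upper-quartile factors, -0.056 without factors, -0.057 with limma-trend on log2(TPM + 1), -0.035 with the hair, -0.025 with the endothelium and -0.054 with the basal keratinocyte score. The target median ran from -0.030 to 0.12 when 1 sample was left out. The order of mean levels was the same in CPM per kilobase and on either log scale. The causes were not tested. The labels give same-numbered samples nothing in common but the number. Their deviations from the group means correlated at -0.04, -0.14, -0.05 and 0.34 for numbers 1 to 4. Negative replicate 4 correlated best with its own number, and none of the other samples numbered 1 to 4 did. These 4 values do not settle whether same-numbered samples share more. Numbers 5 to 7 occurred only in the negative group, so with the replicate block the marrow difference rested on numbers 1 to 4. In that fit 0 genes were called, and the Amotl2 value was -0.51. The Amot value was 0.50 ± 0.10 (SE, edgeR adjusted p = 0.192) and the target median 0.035. With 4 samples in the positive group, the printed partner intervals held 0 as well as differences away from 0, and the data do not decide between these.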
